A study of Homo sapiens with 2 samples.

Results

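The ATF4 integrated stress response and amino acid uptake module was examined as a set of 33 genes, found by symbol among the 58735 genes of the deposited count table. It joins kinases and phosphatase subunits that act on the translation factor eIF2, the transcription factor ATF4 with its partners and targets, enzymes of amino acid synthesis, and plasma membrane amino acid transporters. All 33 were measured, that is, had a mean of at least 1 CPM (the count scaled to a common library size) across the libraries, as did 13942 genes in all. The members were compared between 1 siCYP4F11 library, from NCI-H460 cells transfected with an siRNA against CYP4F11, and 1 siControl library of the same line. NCI-H460 is an established human large cell lung carcinoma line that came from a pleural effusion. Cells were collected 24 h after transfection, and the genotype labels read CYP4F11 knockdown and WT. The control label states that no CYP4F11 siRNA was given and names no control sequence. No source used here gives the sequence of the targeting siRNA. The design text writes NCI-H469, and the sample labels, which write NCI-H460, were followed. Both libraries carry the same batch label. Neither group has a replicate, so every comparison is between these particular libraries and no p-value is given.

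When amino acids run short, heme is scarce or proteins misfold, kinases of the EIF2AK family phosphorylate the alpha subunit of eIF2. General translation then slows, while translation of ATF4 mRNA increases through its upstream open reading frames, so ATF4 protein can change with little change in ATF4 mRNA. ATF4 binds with C/EBP family partners to response elements in genes for amino acid transport, amino acid synthesis, tRNA handling and redox defence. In tumour cells this programme is known for keeping up amino acid supply, and its targets DDIT3, CHAC1 and TRIB3 are widely used as its mRNA readouts.

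The core of the C/EBP-ATF response element, TGATGNAA on either strand, was found in RefSeq promoters (GRCh38.p14, from 250 bases before to 50 bases after the start site) of 11 of the 30 members with an entry, or 36.7%. The share was 2.82% among 10457 measured genes with an entry, and 3.62% of all 35116 promoters. The members were chosen as genes of the ATF4 response, so their higher share may follow from that choice and is a description only. NUPR1, EIF2AK1 and PYCR1 had no entry. The matches are given with their flanks because regulators, ASNS and transporters of this module share them, each read 5′ to 3′ on the strand of the match with the match in capitals. By coordinate the windows are chr1:204412029-204412052 (minus strand) for PPP1R15B, chr1:212565208-212565231 (plus) for ATF3, chr19:33374063-33374086 (plus) for CEBPG, chr14:75427998-75428021 (plus) for JDP2, chr15:40953254-40953277 (minus) for CHAC1 and chr7:97872461-97872484 (minus) for ASNS. For the transporters they are chr19:46784896-46784919 (minus) for SLC1A5, chr2:64989384-64989407 (minus) for SLC1A4, chr11:62881728-62881748 (minus) for SLC3A2, chr13:29595666-29595689 (minus) for SLC7A1 and chr12:46266505-46266528 (minus) for SLC38A1.
PPP1R15B: gccccggcTGATGCAAcctcacgc
ATF3: ggtcaggaTGATGGAAggctgtca
CEBPG: gcggcgtcTGATGCAAcctgccgg
JDP2: gccggggcTGATGCAAcccgtccc
CHAC1: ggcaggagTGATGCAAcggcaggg
ASNS: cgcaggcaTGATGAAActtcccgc
SLC1A5: gaagtggcTGATGCAAgctgtcca
SLC1A4: gctggagaTGATGCAAacgggagc
SLC3A2: ggagcTGATGTAAggagtcct
SLC7A1: cgcactgcTGATGAAAcctggcgc
SLC38A1: gacccgaaTGATGAAAagggatca

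The matched letters were TGATGCAA in PPP1R15B, CEBPG, JDP2, CHAC1, SLC1A5 and SLC1A4, TGATGAAA in ASNS, SLC7A1 and SLC38A1, TGATGGAA in ATF3 and TGATGTAA in SLC3A2. The matches of CHAC1, SLC1A4 and SLC3A2 lay on the strand opposite to the gene. In 4 of the 11 promoters the match lay wholly before the start site and outside every annotated exon. For those, 160 bases around it are shown on the strand of the gene, so that the surrounding promoter can be read. These are chr1:204411908-204412067 (minus strand) for PPP1R15B, chr1:212565157-212565316 (plus) for ATF3, chr19:33373953-33374112 (plus) for CEBPG and chr14:75427862-75428021 (plus) for JDP2. A match is a run of letters and was not tested as a binding site.
PPP1R15B: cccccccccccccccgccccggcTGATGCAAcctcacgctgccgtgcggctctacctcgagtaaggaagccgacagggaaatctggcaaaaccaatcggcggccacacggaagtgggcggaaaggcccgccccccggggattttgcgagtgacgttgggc
ATF3: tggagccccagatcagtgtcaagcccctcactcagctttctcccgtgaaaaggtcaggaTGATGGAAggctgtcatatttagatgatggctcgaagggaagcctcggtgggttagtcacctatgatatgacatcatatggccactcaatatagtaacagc
CEBPG: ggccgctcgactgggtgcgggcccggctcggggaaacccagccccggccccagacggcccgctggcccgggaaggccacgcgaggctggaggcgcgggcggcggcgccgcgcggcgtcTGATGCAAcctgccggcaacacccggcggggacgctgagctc
JDP2: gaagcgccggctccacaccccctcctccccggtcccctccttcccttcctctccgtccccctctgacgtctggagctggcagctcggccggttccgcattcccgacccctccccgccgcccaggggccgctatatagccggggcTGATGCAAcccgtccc

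**Figure D1:**
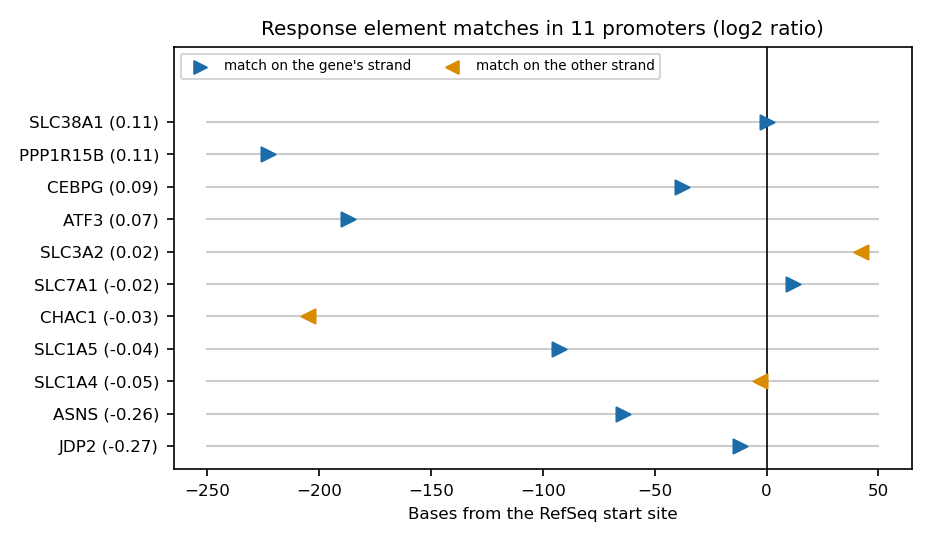
Position of each TGATGNAA match in the promoters of 11 members, in bases from the RefSeq start site, with the log2 ratio of siCYP4F11 over siControl in brackets. Rightward triangles are matches on the strand of the gene and leftward triangles matches on the other strand. Matches lay from -227 in PPP1R15B to 38 in SLC3A2, and the log2 ratios of these genes ran from -0.27 to 0.11.

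The siCYP4F11 library held 13002179 counts and the siControl library 16207785, and 3 counts corresponded to 0.230 CPM in siCYP4F11 and 0.186 CPM in siControl. CYP4F11 itself, which encodes a cytochrome P450 that hydroxylates fatty acids, had 972 counts in the siCYP4F11 library and 3180 in siControl. Its log2 ratio was -1.40 (95% counting interval -1.51 to -1.30), so that the mRNA stood at 37.8% of the control. In bulk RNA, a loss in some cells and a smaller loss in every cell cannot be told apart, nor can fewer cells of a type and less RNA per cell. The keratins of this carcinoma line were abundant, with KRT19 at 18627 counts in siCYP4F11 against 28189 in siControl and KRT8 at 13557 in siCYP4F11 against 20578 in siControl, while the epithelial genes EPCAM and CDH1 were at or near 0. Of 6 leukocyte markers, PTPRC and CD3E had 0 counts in both libraries, and the list summed to 36 counts in siCYP4F11 and 23 in siControl. Of 7 fibroblast and endothelial markers, PECAM1, CDH5 and VWF had 0 counts in both, and the list summed to 324 counts in siCYP4F11 and 273 in siControl, most of them from LUM. CD14 of the first list and LUM and DCN of the second were higher in siCYP4F11 by at least 1.3-fold with a counting interval above 0, and the part of such transcripts in the values of the module was not tested. The intervals reflect counting error alone, and without molecular identifiers the reads do not each stand for a separate molecule.

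Most members differed little between the libraries. Among the 33 members, 2 were higher in siCYP4F11 by at least 1.3-fold with a counting interval that excludes 0, the stress cytokine GDF15 and the stress factor NUPR1, where the same rule called 5.19% of all measured genes. No member was lower by this rule, which called 6.71% of measured genes. At 2-fold no member was called in either direction, against 0.703% of measured genes higher and 1.26% lower. At 1.5-fold, or where the counting interval had to lie wholly past the 1.3-fold line, no member was called either. For those rules calls were counted among the members only, so no share of all measured genes stands beside them. The median log2 ratio of the members was 0.04, with a range of -0.27 to 0.48, and that of all measured genes was -0.005. The counting interval lay above 0 for 13 members, below 0 for 6, and held 0 for 14. Among all measured genes it lay above 0 for 2599, below 0 for 2678, and held 0 for 8665. These counts are not matched on level, and the interval narrows as counts rise. A mean of at least 100 CPM was reached by 21 of the 33 members and by 2062 of the 13942 measured genes.

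Most members were strongly expressed. A mean of at least 100 CPM was reached by 21 members, and 18 of these lay within 0.2 of 0 on the log2 scale, while 75.1% of all genes at that level did. The 5th to 95th percentile of log2 ratios at that level ran from -0.31 to 0.27 over 2062 genes. GDF15 and the glutamine transporter SLC38A2 lay above the range for their level, no member lay below it, and the other 31 lay inside. At that level the 1.3-fold rule called 27 genes higher, or 1.31%, and GDF15 was the one member among them. It called 57 genes lower, or 2.76%, with no member among them. The members together took 0.955% of the counts in siCYP4F11 and 0.904% in siControl. The exact intervals of these shares did not overlap, but they hold counting error alone, from 1 library per group. SLC38A2 alone gave 16975 of the 124198 member counts in siCYP4F11 and 16656 of the 146582 in siControl. The shares were not set against those of other gene sets.

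**Figure D2:**
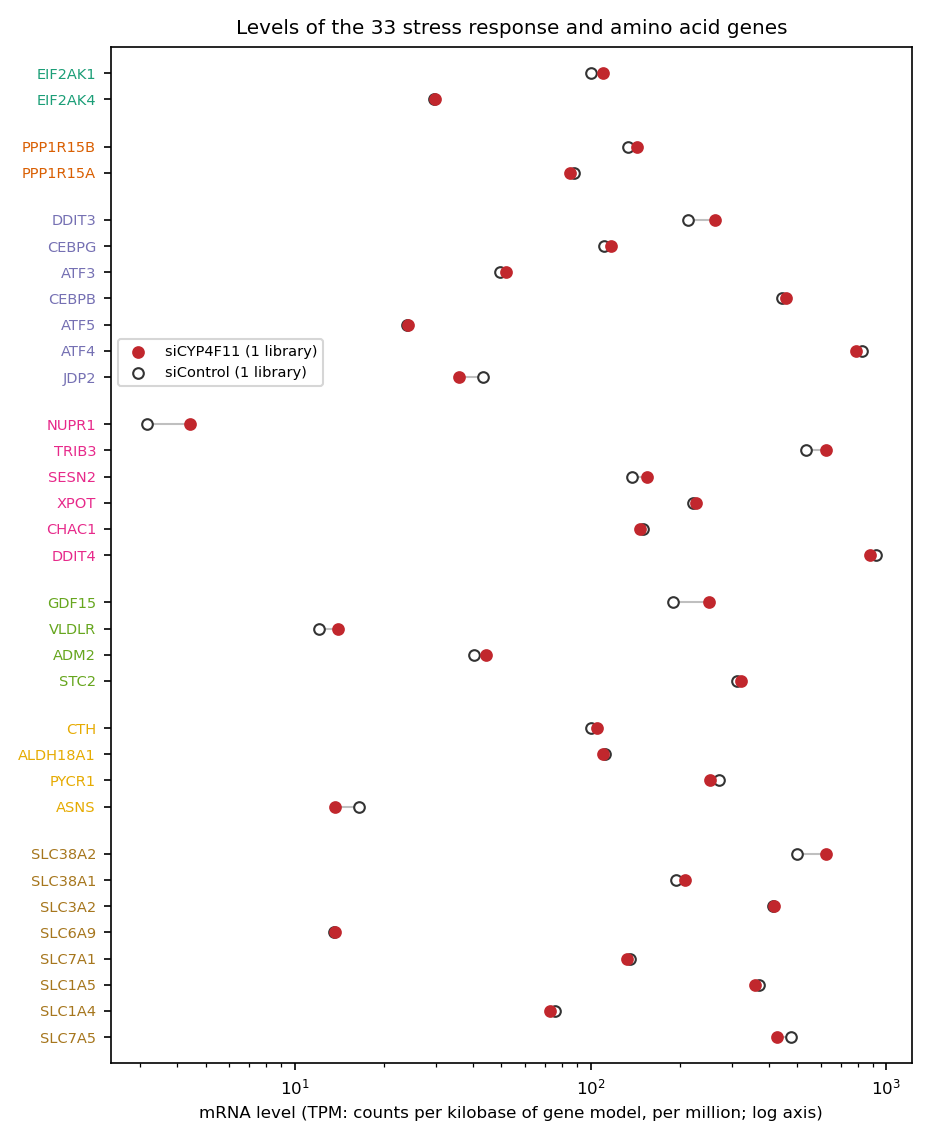
Level of each of the 33 members in TPM (counts per kilobase of gene model, scaled to a common sum; log axis), grouped by role, with a filled point for the siCYP4F11 library and an open point for the siControl library. DDIT4 had the highest level, at 880 TPM in siCYP4F11 and 920 TPM in siControl, and NUPR1 the lowest, at 4.42 TPM in siCYP4F11 and 3.17 TPM in siControl. For most members the points lie close together, and the widest gaps are those of NUPR1, GDF15 and SLC38A2.

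The differences also ran with base composition. Across 9590 genes with a mean of at least 10 CPM, the log2 ratio had a Spearman correlation of -0.42 with the GC content of the transcripts, a description of these libraries across genes that share them. The median GC content was 53.3% for the members and 48.0% for those genes, and among the 33 members the correlation was -0.26. After the trend was subtracted, 27 members had a log2 ratio above 0 in place of 21, their median was 0.07, and 10 changed sign. Of all 13942 measured genes, 6918 lay above 0 after it, in place of 6859. For 16 of the 33 members the corrected value lay outside the counting interval, so these intervals do not cover the choice of correction. GDF15 and NUPR1 remained the members called, with corrected values of 0.52 and 0.53. With the correction, the rule called 607 of the 13942 measured genes higher and 810 lower. The 10 were ATF4, DDIT4, PYCR1, CHAC1, PPP1R15A, SLC1A5, SLC7A1 and ALDH18A1, below 0 before the correction and above it after, and XPOT and EIF2AK4, which did the opposite, so these signs depend on the correction. The part of base composition in any single difference was not tested.

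**Figure D3:**
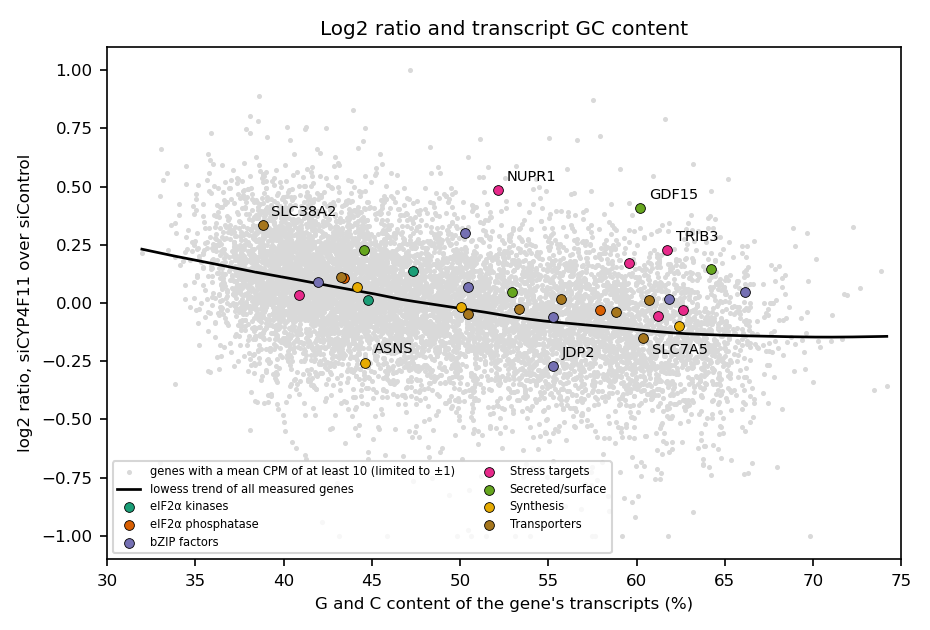
Log2 ratio of siCYP4F11 over siControl against the GC content of the transcripts for genes with a mean of at least 10 CPM (grey) and for the 33 members, coloured by role. The line is the smoothed trend of all measured genes. GDF15 and TRIB3 lie above the trend at a GC content near 60%, and SLC38A2 lies above it at 38.8%.

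The sensor and reset arms of the pathway showed small values. EIF2AK1, the heme-regulated eIF2 kinase that also relays mitochondrial stress, had 2506 counts in siCYP4F11 and 2819 in siControl, with a log2 ratio of 0.14 (0.06 to 0.21). EIF2AK4, the GCN2 kinase that senses uncharged tRNA, had 1464 counts in siCYP4F11 and 1793 in siControl, a log2 ratio of 0.01 (-0.09 to 0.11), and -0.03 after the GC correction. Per length, EIF2AK1 was the more abundant kinase mRNA in both libraries. It stood at 110 TPM in siCYP4F11 and 100.3 TPM in siControl, and EIF2AK4 at 29.8 TPM in siCYP4F11 and 29.6 TPM in siControl. PPP1R15A (GADD34) is the stress-inducible subunit that directs a phosphatase to eIF2 and so ends the response, and PPP1R15B is its constitutive counterpart. PPP1R15A stood at -0.03 (-0.14 to 0.09), or 0.07 after correction, with 1088 counts in siCYP4F11 and 1372 in siControl, and PPP1R15B at 0.11 (0.04 to 0.18), with 3089 counts in siCYP4F11 and 3547 in siControl. None of the 4 reached 1.3-fold, and all 4 lay inside the range of genes at their level. As a difference of log2 ratios, EIF2AK4 minus EIF2AK1 was -0.12 (-0.25 to 0.005), an interval that holds 0. PPP1R15A minus PPP1R15B was -0.14 (-0.27 to 0.0006), which holds 0 too. After the GC correction PPP1R15B stood at 0.04, below PPP1R15A at 0.07.

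Of the 7 bZIP transcription factors none was called. ATF4, the effector of the pathway (chr22:39519695-39522685, plus strand), had 8183 counts (627 CPM) in siCYP4F11 and 10557 (654 CPM) in siControl. Its log2 ratio was -0.06 (-0.10 to -0.02), and 0.02 after the GC correction. It was the most abundant of the 7 per length, at 792 TPM in siCYP4F11 and 829 TPM in siControl, ranking 132 in siCYP4F11 and 125 in siControl among all genes. Of the words of 50 bases in its transcripts, 17.9% also occur in other genes, mainly the pseudogene ATF4P3, which had 9 counts in siCYP4F11 against 10 in siControl.

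DDIT3 (CHOP), an ATF4 target that promotes cell death under prolonged stress, had 1414 counts (108 CPM) in siCYP4F11 and 1418 (87.8 CPM) in siControl. Its log2 ratio of 0.30 (0.19 to 0.41) was short of 1.3-fold and inside the range at its level, and its TPM was 0.332 of that of ATF4 in siCYP4F11 and 0.258 in siControl. Taken as a difference of log2 ratios, DDIT3 minus ATF4 was 0.36 (0.25 to 0.48), a value that does not depend on library scaling. Such differences were taken for 11 pairs of related members, all before the GC correction, and each is given with its genes. They do depend on that correction. After it, the order was reversed for CEBPG and CEBPB, PPP1R15A and PPP1R15B, and PYCR1 and ALDH18A1. Exons of other genes overlap 39.6% of the exon bases of DDIT3, mainly MARS on the other strand with 6217 counts in siCYP4F11 and 7459 in siControl. The sources used here do not say whether counting used strand, so reads of overlapping genes cannot be told apart.

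JDP2, a repressor that pairs with JUN family proteins, had the lowest log2 ratio of the members before the GC correction, after which ASNS was lower. It had 919 counts in siCYP4F11 and 1372 in siControl, a log2 ratio of -0.27 (-0.39 to -0.15), and -0.19 after the GC correction. ATF3, a stress-induced factor of the same subfamily, had 862 counts in siCYP4F11 against 1015 in siControl and stood at 0.07 (-0.06 to 0.20). The difference JDP2 minus ATF3 was -0.34 (-0.52 to -0.16). Both promoters hold the response element core shown above, TGATGCAA in JDP2 and TGATGGAA in ATF3.

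The C/EBP factors showed log2 ratios near 0 before the GC correction. CEBPB, an activator induced by amino acid limitation, had 3671 counts in siCYP4F11 and 4392 in siControl, at a log2 ratio of 0.05 (-0.02 to 0.11), or 0.19 after correction. CEBPG, which dimerises with ATF4, had 2127 counts in siCYP4F11 against 2474 in siControl. Its log2 ratio was 0.09 (0.00 to 0.17), or 0.005 after correction. The difference CEBPG minus CEBPB was 0.04 (-0.07 to 0.15) before the GC correction, and CEBPG was the lower after it. ATF5, a factor of the mitochondrial stress response, was the least abundant of the 7 at 24.1 TPM in siCYP4F11 and 23.9 TPM in siControl, and stood at 0.02 (-0.21 to 0.24). The gene NUP62 on the other strand accounts for most of the 23.7% of ATF5 exon bases that other genes overlap, and CEBPB-AS1 overlaps 11.8% of CEBPB.

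**Figure D4:**
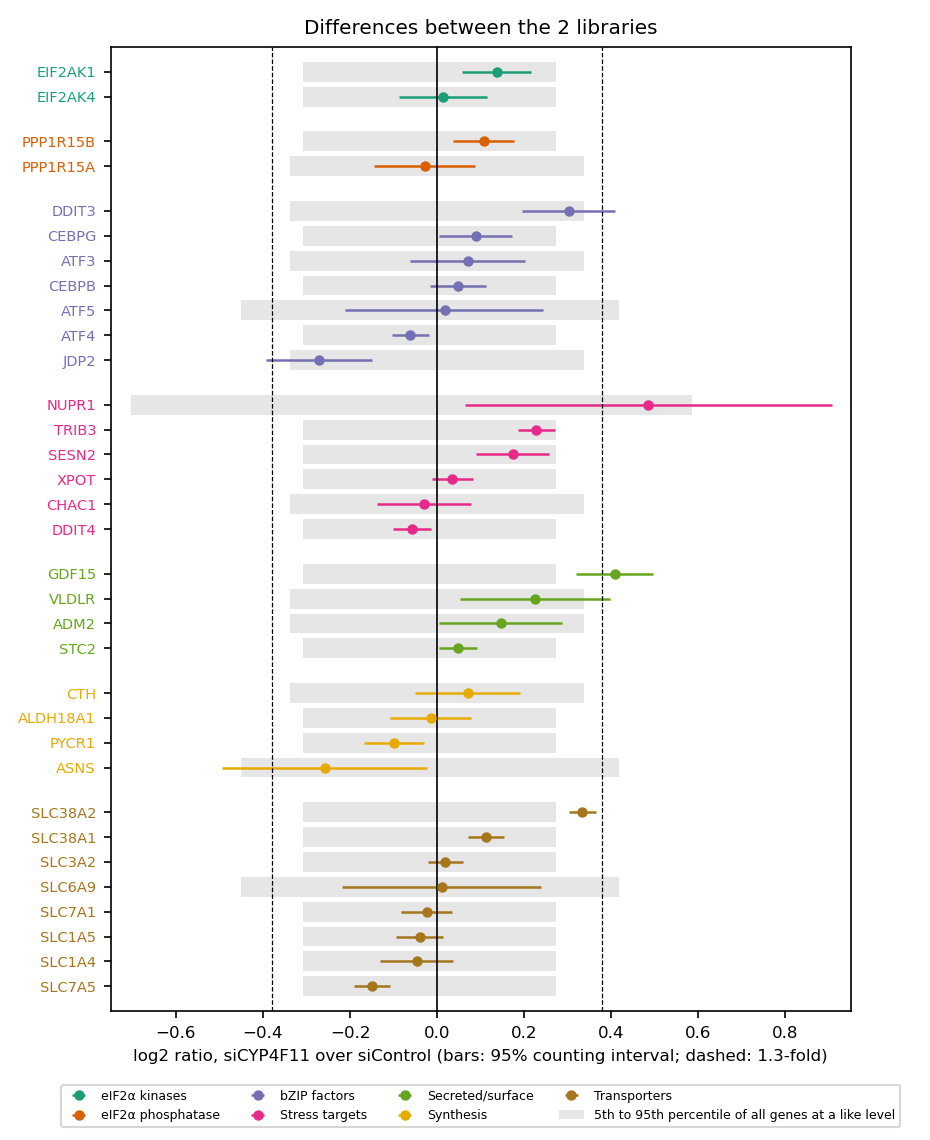
Log2 ratio of siCYP4F11 over siControl for each member (points) with its 95% counting interval (bars), grouped by role and ordered by value. Grey bands give the 5th to 95th percentile of all measured genes of a like level, and dashed lines mark 1.3-fold. GDF15 and SLC38A2 lie to the right of their bands, and NUPR1, at 0.48, lies past the dashed line but within its wide band.

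Among the 6 intracellular targets, 1 was called. NUPR1, a small chromatin-associated protein induced by stress (chr16:28532708-28539174, minus strand), had 103 counts (7.89 CPM) in siCYP4F11 and 91 (5.64 CPM) in siControl. Its log2 ratio was 0.48 (0.06 to 0.91), which is 140% of the control. This was the largest value in the module and also the least certain, since it rests on about 100 reads in each library and lies inside the range of -0.70 to 0.58 for genes of 3 to 10 CPM. Of the 2280 genes at that level, 8.90% were called higher.

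TRIB3 and SESN2 showed smaller values with far narrower intervals. TRIB3, a pseudokinase that restrains AKT and feeds back on ATF4, had 8819 counts (676 CPM) in siCYP4F11 and 9310 (577 CPM) in siControl. Its log2 ratio was 0.23 (0.19 to 0.27), short of 1.3-fold and inside the range at its level, and 0.35 after the GC correction. SESN2, a leucine sensor upstream of mTORC1, had 2196 counts in siCYP4F11 and 2408 in siControl, at a log2 ratio of 0.17 (0.09 to 0.26), or 0.28 after correction.

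The remaining intracellular targets stood close to 0. CHAC1, which degrades glutathione, had 1244 counts in siCYP4F11 and 1570 in siControl, a log2 ratio of -0.03 (-0.14 to 0.08), with the corrected value at 0.10. DDIT4 (REDD1), an inhibitor of mTORC1, had 7448 counts in siCYP4F11 against 9583 in siControl, at a log2 ratio of -0.06 (-0.10 to -0.01), with the corrected value at 0.07. DDIT4 had the highest TPM of all members, 880 in siCYP4F11 and 920 in siControl. The difference TRIB3 minus DDIT4 was 0.29 (0.22 to 0.35). XPOT, which exports tRNA from the nucleus, had 6872 counts in siCYP4F11 and 8292 in siControl, at a log2 ratio of 0.04 (-0.01 to 0.08), or -0.06 after correction.

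The 4 secreted and surface products had log2 ratios above 0, with counting intervals above 0 in each case and a median of 0.19. GDF15, a cytokine of the TGF-beta superfamily that is released by stressed cells (chr19:18374731-18389176, plus strand), was called higher. It had 2157 counts (165 CPM) in siCYP4F11 and 2010 (125 CPM) in siControl, although the siCYP4F11 library was the smaller of the pair. The log2 ratio was 0.41 (0.32 to 0.50), or 133% of the control, and its rank by TPM was 504 in siCYP4F11 and 678 in siControl. No exon of another gene overlaps GDF15, and none of its words of 50 bases occurs in another gene.

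The other secreted and surface members were not called. VLDLR, a lipoprotein receptor, had 539 counts in siCYP4F11 and 570 in siControl, a log2 ratio of 0.23 (0.05 to 0.40). ADM2, the peptide hormone intermedin, had 781 counts in siCYP4F11 against 873 in siControl, at a log2 ratio of 0.15 (0.00 to 0.29). STC2, a secreted glycoprotein that inhibits the protease PAPP-A, had 8131 counts in siCYP4F11 and 9725 in siControl, at a log2 ratio of 0.05 (0.01 to 0.09), or 0.11 after the GC correction.

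None of the 4 enzymes of amino acid synthesis was called. ASNS, which makes asparagine and is a classic ATF4 target (chr7:97852118-97872542, minus strand), had 251 counts (19.2 CPM) in siCYP4F11 and 371 (23.0 CPM) in siControl. Its log2 ratio was -0.26 (-0.49 to -0.02), inside the range at its level, and -0.30 after the GC correction. The counted level of ASNS was also low for this module, at 13.7 TPM in siCYP4F11 and 16.4 TPM in siControl, with a rank of 7439 in siCYP4F11 and 6816 in siControl. AC079781.5, annotated on the same strand across 44.6% of the ASNS exon bases, had 8 counts in siCYP4F11 against 13 in siControl. The sources used here do not say whether reads in shared exons were counted for either gene. The part of this overlap in the low ASNS level was not tested.

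Proline synthesis and transsulphuration gave values nearer 0. ALDH18A1, which starts proline synthesis from glutamate, stood at -0.01 (-0.11 to 0.08) with 1711 counts in siCYP4F11 and 2138 in siControl, and at 0.01 after correction. PYCR1, which completes it, stood at -0.10 (-0.17 to -0.03) with 3003 counts in siCYP4F11 and 3977 in siControl, and at 0.03 after correction. The difference PYCR1 minus ALDH18A1 was -0.08 (-0.20 to 0.03). CTH, which releases cysteine from cystathionine, stood at 0.07 (-0.05 to 0.19) with 1041 counts in siCYP4F11 against 1226 in siControl.

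The 8 amino acid transporters contained no called gene, and their values spread from -0.15 to 0.33 around a median within 0.01 of 0. SLC38A2 (SNAT2), a sodium-coupled carrier of glutamine and other small neutral amino acids (chr12:46358189-46372867, minus strand), had the largest value. It had 16975 counts (1300.3 CPM) in siCYP4F11 and 16656 (1032 CPM) in siControl. The log2 ratio was 0.33 (0.30 to 0.36), or 126% of the control, just under the 1.3-fold line with the interval wholly below it. At a GC content of 38.8% it had the most AT-rich transcripts of the module, and its corrected value was 0.21.

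SLC38A1 (SNAT1), the closest relative of SLC38A2 in the set, had 8600 counts in siCYP4F11 and 9835 in siControl, a log2 ratio of 0.11 (0.07 to 0.15), or 0.05 after correction. The difference SLC38A2 minus SLC38A1 was 0.22 (0.17 to 0.27) before the GC correction, and the transcripts of SLC38A1 had a GC content of 43.3%. The TPM of SLC38A2 was 2.99 times that of SLC38A1 in siCYP4F11 and 2.57 times in siControl. By TPM, SLC38A2 made up 27.7% of the transporter mRNA of the module in siCYP4F11 and 22.9% in siControl. It ranked first among the 8 in both libraries. These shares and ranks divide by the bases of all annotated exons of each gene, so they depend on that length.

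SLC7A5 (LAT1), which exchanges large neutral amino acids such as leucine, works as a heterodimer with the heavy chain SLC3A2. SLC7A5 had 8326 counts in siCYP4F11 and 11425 in siControl, a log2 ratio of -0.15 (-0.19 to -0.11), and -0.03 after correction. SLC3A2 had 8869 counts in siCYP4F11 and 10824 in siControl, at a log2 ratio of 0.02 (-0.02 to 0.06), or 0.10 after correction. The difference SLC7A5 minus SLC3A2 was -0.17 (-0.23 to -0.11), and per length the light chain stood at 1.02 times the heavy chain in siCYP4F11 and 1.15 times in siControl. The TPM ratio of the chains rests on the length of all annotated exons, 4745 bases for SLC7A5 and 5178 for SLC3A2. Both values of SLC7A5 and SLC3A2 lay inside the range at their level.

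The other carriers were nearly level between the libraries. SLC1A5 (ASCT2), a glutamine and neutral amino acid exchanger, had 4943 counts in siCYP4F11 and 6283 in siControl, a log2 ratio of -0.04 (-0.09 to 0.01), or 0.07 after correction. SLC1A4 (ASCT1), which carries serine and alanine, had 2085 counts in siCYP4F11 against 2664 in siControl and stood at -0.05 (-0.13 to 0.04), and the difference SLC1A4 minus SLC1A5 was -0.01 (-0.11 to 0.09). SLC7A1 (CAT1), the carrier of arginine and lysine, had 4198 counts in siCYP4F11 and 5278 in siControl and stood at -0.02 (-0.08 to 0.03), or 0.04 after correction. The difference SLC7A1 minus SLC7A5 was 0.13 (0.05 to 0.20). SLC6A9, a glycine transporter, was the least abundant of the 8, with 290 counts in siCYP4F11 against 356 in siControl, and stood at 0.01 (-0.22 to 0.24). Other annotated genes overlap 41.2% of the exon bases of DDIT4, 29.7% of PYCR1 and 23.8% of SLC1A5, and the main one in each case had at most 5 counts in either library.

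Set side by side, the 12 members for amino acid transport and synthesis had a median log2 ratio of -0.02, or 0.04 after the GC correction, and the 21 stress regulators and targets one of 0.07, or 0.11 after it. Of the 12, 5 lay above 0 and 7 below, and of the 21, 16 lay above and 5 below. After the GC correction, 9 of the 12 lay above and 3 below, and 18 of the 21 above and 3 below. Among all measured genes, 6859 lay above 0 and 7083 below, or 6918 above and 7024 below after the correction. Both called members belong to the 21. The 11 members with TGATGNAA in the promoter window given above had a median of -0.02, and the 19 without it there 0.05. Among measured genes the medians were 0.02 for 295 with the core in that window and -0.004 for 10162 without it there. Sequence outside the window was not searched, so genes without a match there may hold the core elsewhere. These medians therefore do not compare genes that have the element with genes that lack it.

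**Figure D5:**
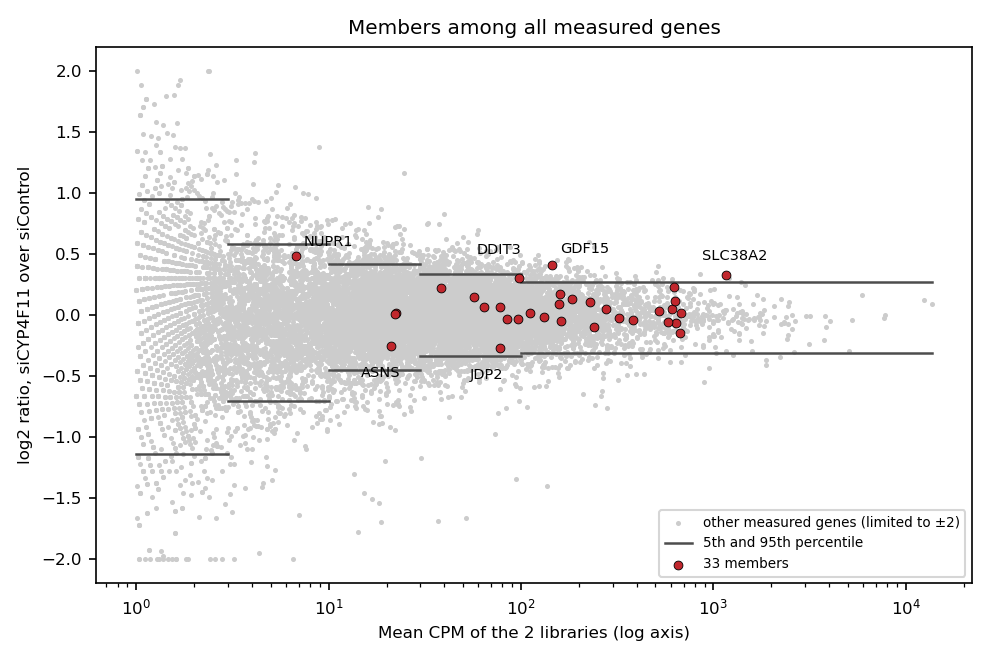
Log2 ratio of siCYP4F11 over siControl against the mean CPM of the libraries (log axis) for all measured genes (grey, limited to between -2 and 2) and the 33 members (red), with lines at the 5th and 95th percentile in each class of level. The members fill the right side of the plot near 0, and GDF15 and SLC38A2 lie above the upper line.

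Lists of genes around the module were read against the same shares, 5.19% of measured genes higher and 6.71% lower. Of 25 other eIF2 kinases, initiation factors and regulators, 2 were higher and 2 lower. Their median log2 ratio was 0.05, and -0.00086 after the GC correction. OMA1, the mitochondrial protease upstream of EIF2AK1, had 128 counts in siCYP4F11 and 101 in siControl, a log2 ratio of 0.65 (0.26 to 1.04). Its mean was in the class of 3 to 10 CPM, where 8.90% of genes were called higher. DNAJC3, an endoplasmic reticulum co-chaperone, had 585 counts in siCYP4F11 and 517 in siControl, at a log2 ratio of 0.48 (0.31 to 0.66), and 0.38 after the GC correction, just short of the line. EIF2B4, a subunit of the eIF2 exchange factor, had 369 counts in siCYP4F11 against 642 in siControl, at a log2 ratio of -0.49 (-0.68 to -0.31). The other lower gene, named after its value was seen, was GCN1, an activator of EIF2AK4, with 3136 counts in siCYP4F11 and 5103 in siControl, at -0.40 (-0.46 to -0.33), and -0.31 after correction, which is short of the line.

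Of 38 further genes linked to ATF4, 2 were higher and 1 lower, with a median of 0.09. CREBRF, a regulator of CREB3 family factors, had 119 counts in siCYP4F11 and 86 in siControl, at 0.77 (0.36 to 1.19). It too lay in the class of 3 to 10 CPM, where 8.90% of genes were called higher. CDKN1A, the cell cycle inhibitor p21, had 1270 counts in siCYP4F11 and 1171 in siControl, at 0.42 (0.31 to 0.54). TXNIP, which restrains glucose uptake and thioredoxin, had 4734 counts in siCYP4F11 against 8198 in siControl, at -0.49 (-0.54 to -0.43). These genes differ in what they do, and CDKN1A and TXNIP also answer to other pathways.

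Amino acid sensing for mTORC1 had 4 higher and 0 lower genes of 36 measured, so that 11.1% were higher, with a median of 0.10, or 0.09 after the GC correction. BMT2 (SAMTOR), the S-adenosylmethionine sensor, had 148 counts in siCYP4F11 and 94 in siControl, at 0.96 (0.58 to 1.35). RRAGC, a Rag GTPase, had 107 counts in siCYP4F11 and 76 in siControl, at 0.80 (0.36 to 1.24), and SESN1, a relative of SESN2, had 150 counts in siCYP4F11 against 119 in siControl, at 0.64 with a lower bound of 0.28. These 3 had means of 3 to 10 CPM, a class in which 8.90% of genes were called higher. LAMTOR3, a subunit of the Ragulator complex that was named after its value was seen, had 359 counts in siCYP4F11 and 309 in siControl, at 0.52 (0.30 to 0.75). It lay in the class of 10 to 30 CPM, where 6.76% of genes were called higher.

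The 17 other amino acid transporters measured held 1 higher gene, SLC38A9, the lysosomal arginine sensor, with 200 counts in siCYP4F11 and 147 in siControl, at 0.75 (0.44 to 1.07). They also held 1 lower gene, SLC6A15, a branched-chain amino acid carrier, with 680 counts in siCYP4F11 and 1129 in siControl, at -0.42 (-0.56 to -0.29). Of 27 other ATF, CREB, C/EBP and partner bZIP genes, MAFK was the 1 called, lower at -0.39 (-0.45 to -0.33), with 3974 counts in siCYP4F11 and 6449 in siControl and -0.25 after the GC correction, which is short of the line. Exons of TMEM184A on the other strand overlap 18.1% of MAFK. None of the 20 cytosolic aminoacyl-tRNA synthetases was called, and of 18 serine and one-carbon enzymes GLDC, of glycine cleavage, was lower at -0.50 (-0.87 to -0.13), with 99 counts in siCYP4F11 against 173 in siControl. Of 30 genes of endoplasmic reticulum folding and the unfolded protein response, 2 were higher and 0 lower, namely DNAJC3 and DNAJB9, a co-chaperone of BiP that stood at 0.55 (0.27 to 0.83) with 234 counts in siCYP4F11 and 198 in siControl.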

How the data were processed

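The authors deposited a table of whole-number read counts per gene, not normalised, for both libraries, with the length of each gene model. Libraries were strand-specific (dUTP) and made from poly-A RNA, per the labels' protocols. Per the submitters' processing notes, the tools were edgeR 4.0.16, featureCounts 2.0.6, HISAT2 2.2.1 and fastp, on the build GRCh38, with no roles or parameters given. From the deposited counts, TMM library sizes were computed (edgeR 4.0.16, R 4.3.3; factors 1.004 for siCYP4F11 and 0.996 for siControl), and 0.5 was added to each count before log2 ratios. Intervals are exact Clopper-Pearson at 95%. TPM values use the deposited gene lengths. No test across libraries was possible with 1 library per group. GC content and exon overlap used GENCODE transcripts, with a lowess span of 0.3. The calls were tested on simulated Poisson counts with known folds. Those counts held no variation between libraries and no GC trend, so they cannot show how the calls fare under either. All members are named, and of each other list up to 3 called genes with the largest log2 ratio. Members and lists were chosen with earlier results of these data known. Alternatives were total counts, DESeq2 1.42.0 and upper-quartile scaling, other added counts, filters and folds. Calculations used pandas 2.3.3, scipy 1.17.1, statsmodels 0.14.6, numpy 2.4.6 and matplotlib 3.10.9 under Python 3.11.15.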

Additional observations from a re-analysis of the deposited data

How the results depend on the processing

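The count of members called higher was 2 with total counts, DESeq2 or upper-quartile scaling, with 2 added to each count, without a filter, above a mean CPM of 5, and with the GC correction. It was 0 at 1.5-fold, 0 at 2-fold and 0 where the counting interval had to lie wholly past the 1.3-fold line. The count called lower was 0 in each of these. With total counts, 773 of 13944 measured genes were called higher and 875 lower. With DESeq2 scaling, 750 of 13942 were higher and 904 lower, and with the GC correction 607 higher and 810 lower. For upper-quartile scaling, the other added count and the filters, calls were counted among the members only. The median log2 ratio of the members ran from 0.04 to 0.07, and the mean was 0.06. Members above 0 numbered 21 under each scaling and 27 with the GC correction. Without the 8 members that share over 10% of their exon bases or words with another gene, an alternative chosen after seeing the data, 18 of 25 lay above 0 and the median was 0.07. CYP4F11 stayed between -1.40 and -1.36. No replicate could be left out and no paired analysis was possible because each group has 1 library. Depth limits NUPR1, ASNS, ATF5 and SLC6A9, whose intervals span over 0.4 on the log2 scale.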
